A study of Mus musculus with 12 samples.

Results

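Murine BrafV600E melanoma cells that had lost the PGE2 synthase mPGES-1 (ptges-KO) were compared directly with cells of the same origin that had lost the cyclooxygenase COX-1 (ptgs1-KO). The comparison took 6 of the 12 deposited samples, the 3 ptges-KO and the 3 ptgs1-KO samples, chosen by the genotype in their labels. The other samples were a scramble control line and a ptgs2-KO line (COX-2), 3 of each. The scramble samples entered the filter on low values and some alternative fits, but not the main test, and are otherwise given as a reference level. The sequenced libraries, which the study's methods call mRNA libraries, were made from RNA of cultured cells without treatment. The values are RPKM, that is read counts scaled to transcript length and to the mapped reads of the library.

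Both lines came from melanoma cells of 1 C57BL/6 mouse with the alleles Braf+/LSL-V600E, Tyr::CreERT2+/o and p16INK4a-/-. Cre recombinase is in that model driven by the tyrosinase promoter, so that BRAF V600E is switched on in melanocytes by tamoxifen. The knockouts were made with CRISPR/Cas9 kits, puromycin selection and limiting dilution. The 3 samples of a line are described once as different subclones and once as independent samples, so the p-values measure the spread between these samples only, and the knockout and the history of a selected line cannot be told apart. The labelled melanocytic origin was not visible in most lineage markers. Of 21 melanocyte genes, 5 reached a mean of 1 RPKM, and Sox10, Tyrp1, Dct, Mlana and Kit were listed at 0 in all 6 samples. Mitf was between 0.97 and 3.35 RPKM and Pax3 between 5.29 and 8.45 RPKM. Slc24a5, a melanosomal ion exchanger, was the only lineage gene called, at 2.39, 1.56 and 0.89 RPKM in ptgs1-KO and 0.38, 0.54 and 0.45 in ptges-KO.

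COX-1 and COX-2 turn arachidonic acid, released from membranes by phospholipase A2, into prostaglandin H2. Terminal synthases then make the individual prostanoids from it, and mPGES-1 is the inducible one that makes PGE2. PGE2 acts through the EP receptors, 2 of which raise cAMP, and tumors of many kinds use it to restrain immune cells and to shape their stroma. A COX-1 knockout therefore removes 1 of 2 entry enzymes upstream of all prostanoids, whereas an mPGES-1 knockout removes 1 branch downstream.

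Cells without mPGES-1 carried more RNA of glycolytic and hypoxia-responsive genes and of p53 target genes than cells without COX-1. They carried less RNA of collagens, laminins and other matrix glycoproteins, of TGF-beta and BMP pathway genes, of axon guidance genes and of growth factor receptors. A gene was tested if its RPKM averaged 1 or more across the 12 samples. Of 11282 such genes, 2659 differed (limma on log2(RPKM + 1), Benjamini-Hochberg adjusted p under 0.05), which is 23.6% of all genes tested. Of these, 1115 were higher in ptges-KO (9.88% of genes tested) and 1544 were lower (13.7%). The log2 difference, ptges-KO minus ptgs1-KO, had a median of -0.04 over all genes, and 90% of genes lay between -0.68 and 0.52. A change of at least 1 on the log2 scale was reached by 130 higher genes (1.15%) and 234 lower genes (2.07%). The groups did not overlap in 4547 genes (40.3%), with ptges-KO above in 17.9% of genes tested and below in 22.4%.

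**Figure D1:**
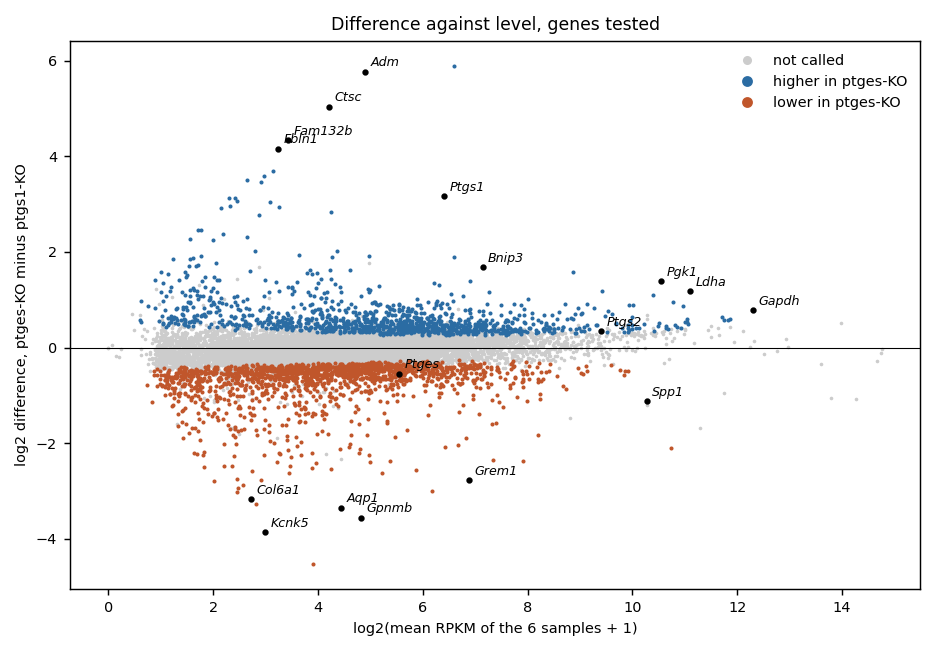
Log2 difference (ptges-KO minus ptgs1-KO, on the log2(RPKM + 1) scale) against the log2 of the mean RPKM of the 6 samples plus 1. Each point is 1 of the 11282 genes tested, with the 1115 higher genes in blue and the 1544 lower genes in orange. Adm stands at 5.77 and Kcnk5 at -3.86, while highly expressed Gapdh, Ldha and Pgk1 lie above 0.

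The number of calls depended on single libraries. It was 1409 without ptges-KO replicate 2 and 1570 without ptges-KO replicate 3, and 2503 (22.2%) without ptgs1-KO replicate 3. The last of these samples was high in the ribosomal RNA precursor Rn45s, at 47672 RPKM against 4890 to 10992 in the other 5. Higher genes made up 41.9% of calls on the deposited scale, 50.7% after median ratio scaling (1795 higher, 1745 lower), 51.0% after quantile normalization, 28.6% with the 20 most abundant genes removed, and 55.1% with trends in transcript length and GC content removed. Length moved with the difference. With genes split by transcript length into 4 equal bins, 14.7% were called higher and 7.23% lower in the bin of shortest transcripts, and 6.26% and 21.8% in the bin of longest. Depth, estimated from the smallest steps in the values, also came out larger in ptges-KO (15.8 to 16.8 M reads) than in ptgs1-KO (13.8 to 14.7 M reads), and its part in the results was not tested. The fit behind this estimate was weak (scores of 0.189 to 0.285). The transcript lengths used for it may differ from those behind the RPKM values.

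The targeted genes were examined first. Ptgs1, which encodes COX-1, lies on chromosome 2 (mm10, 36216742 to 36258593). It was at 16.91, 16.84 and 14.30 RPKM in the ptgs1-KO samples and at 172.87, 138.31 and 145.70 RPKM in the ptges-KO samples. The groups were far apart, and the ptges-KO samples lay around the scramble mean of 151 RPKM. The log2 difference was 3.17 (SE 0.11, adjusted p = 9.18e-08 by limma, n = 3 and 3), a 9.51-fold ratio of means. Ptges, which encodes mPGES-1 and lies on the same chromosome (30889471 to 30931020), was at 56.94, 55.00 and 51.50 RPKM in ptgs1-KO and at 41.01, 35.57 and 34.83 RPKM in ptges-KO. All ptges-KO samples were below all ptgs1-KO samples, but both lines were below the scramble mean of 77.6 RPKM, and the targeted gene kept 0.682 of its ptgs1-KO level. The log2 difference was -0.54 (SE 0.10, adjusted p = 0.0036). The RPKM of a gene does not show whether its transcript still encodes a protein.

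Ptgs2, which encodes COX-2 and was targeted in neither line, was at 624.02, 668.29 and 501.52 RPKM in ptgs1-KO and 807.06, 714.82 and 739.68 RPKM in ptges-KO. The ptges-KO samples were all higher, the log2 difference was 0.34 (SE 0.13), and the adjusted p of 0.0757 missed the threshold. It passed under several other settings, with adjusted p between 0.00549 and 0.0408.

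The prostanoid enzyme list, with the 3 targets included, held 24 genes of the table, of which 14 were tested. Of these, 5 were higher and 2 lower (50.0% called, against 23.6% of all genes tested), and the median log2 difference was 0.24. Ptgs1 among the higher genes and Ptges among the lower ones were the genes targeted in these lines. Cbr1, a carbonyl reductase that can convert PGE2 to PGF2alpha, was at 0.37, 0 and 0.06 RPKM in ptgs1-KO and 7.48, 7.75 and 8.26 RPKM in ptges-KO (log2 difference 2.96, adjusted p = 6.47e-07). It was nearly absent in the ptgs1-KO samples only, since the scramble mean was 6.15 RPKM. Ptges3, the cytosolic PGE synthase and HSP90 co-chaperone p23, was higher in ptges-KO (0.37, adjusted p = 0.0142, not called without ptges-KO replicate 2 or 3), as was Akr1b3, an aldose reductase with PGF synthase activity (0.48, adjusted p = 0.0052). Ptgr1, which inactivates prostaglandins downstream of the dehydrogenase step, rose from 1.56 to 1.86 RPKM in ptgs1-KO to 2.70 to 3.79 RPKM in ptges-KO (adjusted p = 0.00905). Pla2g6, a calcium-independent phospholipase A2, was lower (-0.75, adjusted p = 0.0121). Hpgd, the main PGE2-degrading dehydrogenase, and the lipoxygenase genes Alox5 and Alox15 were listed at 0 in all 6 samples.

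Among prostanoid receptors, 3 of 9 genes were tested and 2 were lower in ptges-KO. Ptgfr, the PGF2alpha receptor, was at 4.01, 4.61 and 4.23 RPKM in ptgs1-KO and 0.13, 0.11 and 0.16 RPKM in ptges-KO. The groups were well separated, with scramble at 0.883 RPKM on average, and the log2 difference was -2.22 (adjusted p = 1.46e-06). Ptger1, the EP1 receptor gene, was at 30.89, 27.45 and 28.55 RPKM against 21.64, 20.43 and 18.57 RPKM (-0.50, adjusted p = 0.00696). Ptger4, the cAMP-raising EP4 receptor gene, stayed between 0.80 and 1.34 RPKM and was not called, and Ptger2 and Ptger3 were listed at 0.

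Several of the largest differences were genes present in one line and nearly absent in the other. The plot of log2 levels by sample shows the 12 largest rises and falls. By a limit of at most 0.2 RPKM in each sample of one line and at least 5 in each of the other, 8 genes were on in ptges-KO and off in ptgs1-KO, and 1, Kcnk5, was the reverse. Adm, which encodes the vasodilator and angiogenic peptide adrenomedullin, was at 0, 0.10 and 0.10 RPKM in ptgs1-KO and 64.31, 54.19 and 53.94 RPKM in ptges-KO. Scramble, at 5.19 RPKM, lay between the lines, with the log2 difference at 5.77 (SE 0.12, adjusted p = 3.7e-09). Ctsc, the lysosomal protease cathepsin C, was at 0.08, 0.13 and 0.05 RPKM against 37.90, 34.17 and 32.41 RPKM (5.04, adjusted p = 5.57e-09). Scramble cells were again between them, at 5.48 RPKM.

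Fbln1, which encodes the matrix glycoprotein fibulin-1, was listed at 0 in all ptgs1-KO samples and was at 18.54, 14.99 and 17.22 RPKM in ptges-KO. Scramble cells were at 0.137 RPKM, so the high level was seen in the ptges-KO samples. Itm2a and Morn4 had the same pattern, with 7.53 to 9.25 RPKM in ptges-KO and at most 0.16 RPKM in ptgs1-KO. By contrast, Fam132b, which encodes the iron regulator erythroferrone, was at 0 to 0.04 RPKM in ptgs1-KO and 18.75 to 21.37 RPKM in ptges-KO, with scramble at 18.8 RPKM. The protocadherin gene Pcdh7 was likewise low in ptgs1-KO alone (0.10 to 0.32 RPKM, scramble 17.4). Mfsd2a, a transporter of lysophosphatidylcholine, was at most 0.03 RPKM in ptgs1-KO and 9.87 to 10.96 in ptges-KO. Aldh1l2, a mitochondrial folate enzyme, was at 0.17 to 0.34 RPKM against 11.85 to 13.60, and Magohb, a core exon junction protein, at 0.18 to 0.29 against 12.22 to 17.31. Baiap2l1, an actin regulator and the last of the 8 genes, was at 0.02 to 0.06 against 6.67 to 7.01 RPKM. AK210533, a clone that could not be matched to RefSeq, had the largest log2 difference (5.90) but varied widely, at 0, 0 and 13.93 RPKM against 79.20, 378.56 and 102.86.

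**Figure D2:**
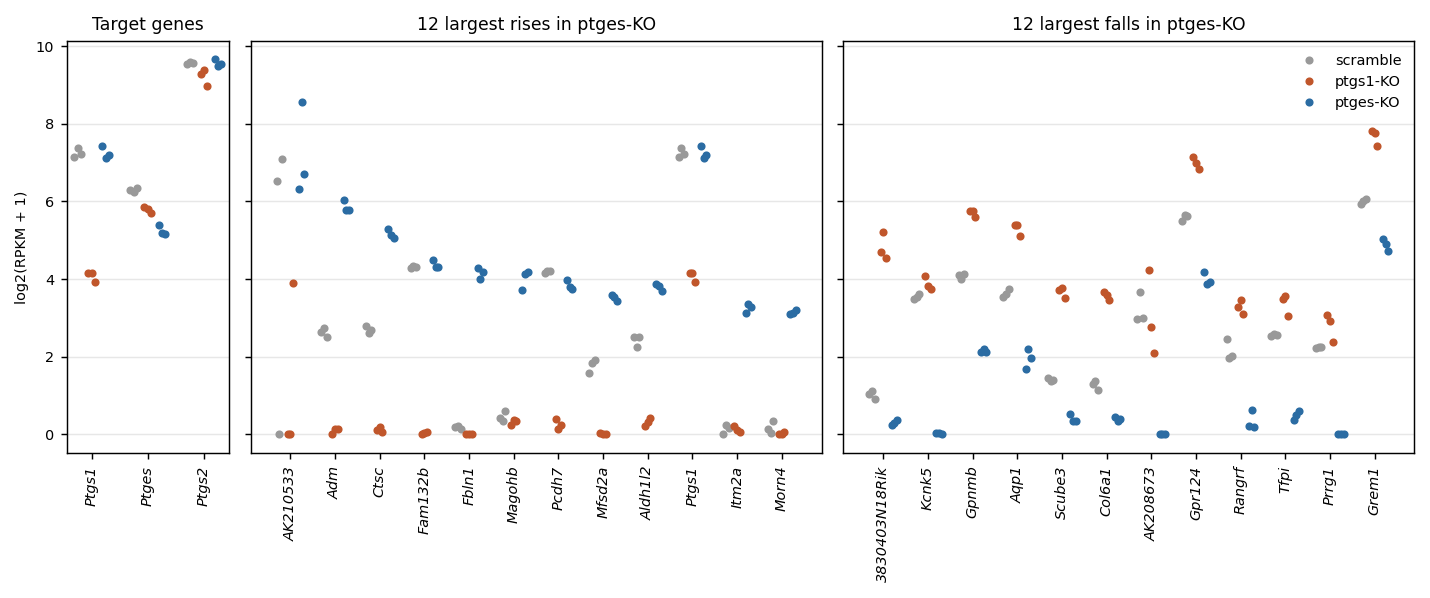
log2(RPKM + 1) of each scramble (grey), ptgs1-KO (orange) and ptges-KO (blue) sample for the 3 target genes and for the 12 largest rises and 12 largest falls in ptges-KO. Each point is 1 sample, 3 per line. The 24 genes were picked among called genes without overlap, so the orange and blue points lie apart by that rule. The position of scramble varies from gene to gene, for example near ptges-KO for Fam132b and near ptgs1-KO for Fbln1.

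Genes lower in ptges-KO included membrane and secreted proteins. Kcnk5, a pH-sensitive potassium channel, was at 15.92, 13.18 and 12.29 RPKM in ptgs1-KO and 0.03, 0.02 and 0 RPKM in ptges-KO (log2 difference -3.86, adjusted p = 7.66e-08). Scramble cells, at 10.7 RPKM, resembled ptgs1-KO in level. Gpnmb, a transmembrane glycoprotein of melanosomes and lysosomes, was at 52.85, 53.36 and 47.24 against 3.36, 3.61 and 3.33 RPKM (-3.56, adjusted p = 2.68e-08), a 14.9-fold lower mean, with scramble between at 15.9 RPKM. Aqp1, a water channel, was 13.3-fold lower, and Gpr124, an adhesion receptor that takes part in Wnt7 signalling and brain vessel growth, 8.46-fold lower. Grem1, a secreted BMP antagonist, was at 223.29, 215.48 and 172.64 RPKM against 31.97, 28.81 and 25.55 RPKM (-2.78, adjusted p = 2.53e-07). For Grem1 the scramble mean of 62.9 RPKM was nearer to ptges-KO. Scube3, Tfpi (an inhibitor of tissue factor), Prrg1, Rangrf, 3830403N18Rik and the unmatched clone AK208673 made up the remaining largest falls, with log2 differences from -2.80 to -4.52. Prrg1 and AK208673 were listed at 0 in all 3 ptges-KO samples.

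In terms of abundance, the largest gains in mean RPKM were mostly glycolytic. Gapdh was at 3884.93, 3789.87 and 3463.64 RPKM in ptgs1-KO and 6074.56, 6396.98 and 6609.59 RPKM in ptges-KO, a 1.71-fold ratio (log2 difference 0.78, adjusted p = 0.00353). Ldha, which encodes lactate dehydrogenase A, rose 2.25-fold, and Eno1 and Pkm rose by 0.59 and 0.57 on the log2 scale. S100a6, a calcium-binding protein encoded on chromosome 3, and Hspa8, the constitutive HSP70 chaperone, were higher by 0.64 and 0.59. The calls of Eno1, Pkm, Hspa8 and S100a6 were lost without ptges-KO replicate 2 and without ptges-KO replicate 3, with adjusted p up to 0.0807, and that of S100a6 also without ptgs1-KO replicate 1. The largest losses were Rmrp, Spp1, Ahnak, Igfbp3, Anxa1 and Fbln2. Spp1, the secreted phosphoprotein osteopontin, was at 1652.52, 1913.36 and 1518.69 RPKM against 681.07, 812.52 and 852.78 RPKM (-1.12, adjusted p = 0.000264), and Igfbp3, an IGF-binding protein, was 3.58-fold lower. Anxa1 and Ahnak lost their calls without ptgs1-KO replicate 2, and without ptgs1-KO replicate 3, ptges-KO replicate 2 or ptges-KO replicate 3, respectively. Rmrp, a structured non-coding RNA, was at 5874.21 RPKM in ptgs1-KO replicate 3 and 1483.27 and 1240.56 in the other ptgs1-KO samples, so it moved with Rn45s in that library.

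Glycolytic enzymes and targets of the hypoxia-inducible factor HIF formed a list in which every call was a rise. HIF is a transcription factor that is degraded while oxygen is plentiful, and it drives glucose uptake, glycolysis and adaptation to low oxygen when it is stable. Of 42 listed genes 35 were tested, and 30 were higher in ptges-KO and 0 lower. The median log2 difference of the list was 0.82, against -0.04 for all genes. Under the alternative settings between 27 and 33 were higher and at most 1 was lower, and none of the tested members lies on chromosome 3, which is described further on.

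The rise ran along the glycolytic chain. Slc2a1, the glucose transporter GLUT1, was at 204.98, 195.98 and 159.73 RPKM against 323.72, 277.95 and 291.80 (log2 difference 0.68). Hk2, which phosphorylates glucose, rose by 0.72, and the phosphofructokinase genes Pfkl, Pfkp and Pfkm by 1.17, 1.63 and 0.50, the last not called without ptgs1-KO replicate 2 or ptges-KO replicate 2. Aldoa, Tpi1, Pgk1 and Pgam1, the middle enzymes of the chain, were 0.89 to 1.38 higher. Pgk1 was at 850.80, 818.29 and 821.34 RPKM in ptgs1-KO and 2316.24, 2133.60 and 2059.51 RPKM in ptges-KO, with no overlap (1.38, adjusted p = 1.5e-05). At the end of the chain, Ldha rose by 1.17 (adjusted p = 0.000107), Pdk1, which keeps pyruvate out of the mitochondrion, by 1.35, and the lactate exporter Slc16a3 (MCT4) by 0.92.

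Bnip3, a mitophagy receptor and HIF target, was at 68.93, 72.86 and 56.99 RPKM against 206.62, 212.15 and 222.36 RPKM. All ptges-KO samples were far above all ptgs1-KO samples, with a ratio of means of 3.23 (log2 difference 1.68, adjusted p = 3.04e-06), and scramble lay between at 105 RPKM. Egln3, a HIF prolyl hydroxylase, was at 0.07 to 0.23 RPKM in ptgs1-KO and 1.86 to 2.16 RPKM in ptges-KO. Ndrg1, Ankrd37, Higd1a, Ak4, P4ha1 and P4ha2 also rose. Not every HIF target was called. Vegfa, the angiogenic growth factor, was at 27.14, 25.04 and 22.61 RPKM against 27.60, 26.49 and 25.15 RPKM, with overlapping groups and an adjusted p of 0.598. Hif1a itself differed by 0.40 (adjusted p = 0.145), and Hk1, Kdm3a and Pfkfb4 missed the threshold as well. Car9, a classical HIF target, was at most 0.15 RPKM in all samples.

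**Figure D3:**
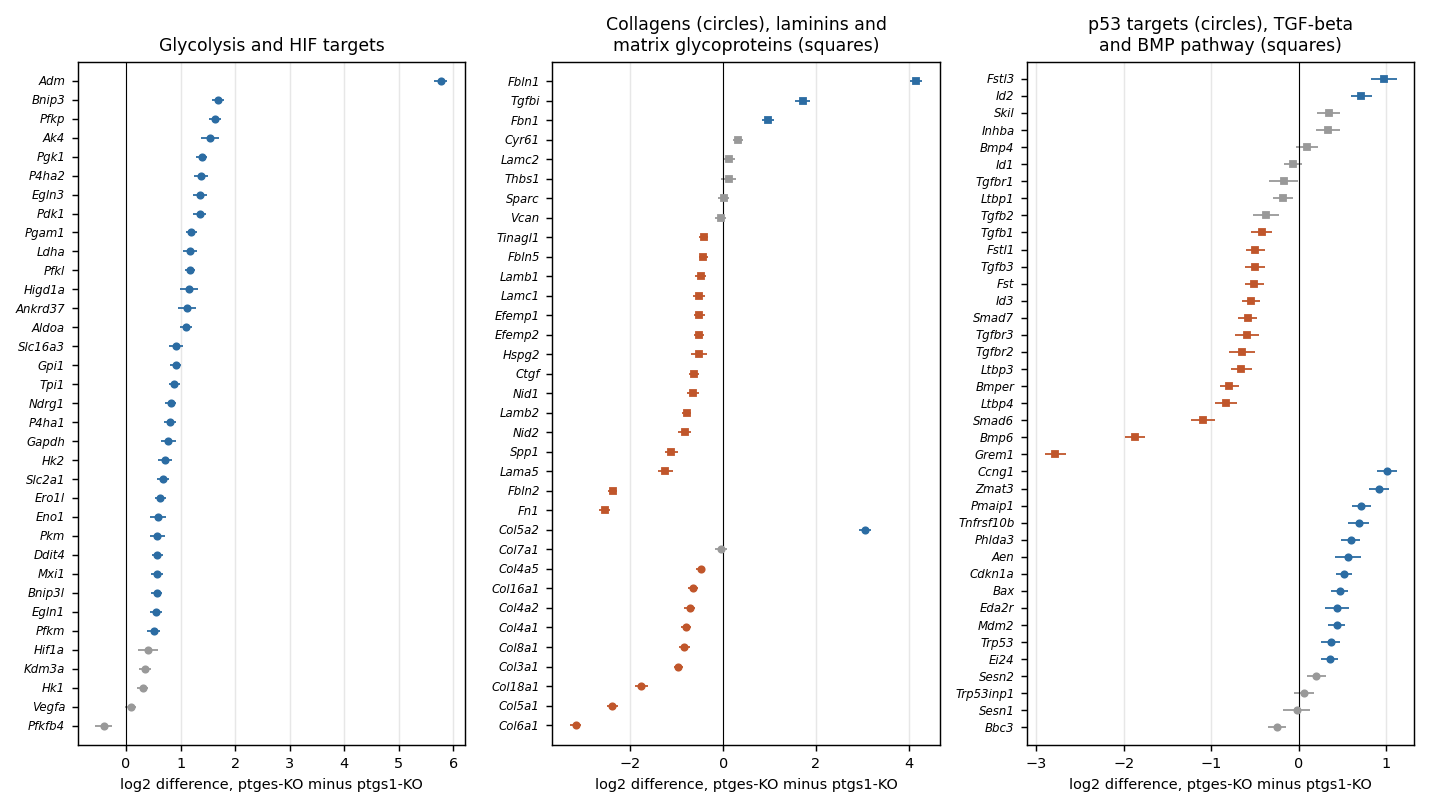
Log2 difference (ptges-KO minus ptgs1-KO) with its standard error for the tested members of 5 gene lists, 3 samples per line, in blue if higher, orange if lower and grey if not called. Of the glycolysis and HIF targets 30 of 35 are blue, and of the p53 targets 12 of 16. Of the 11 collagens 9 are orange, with Col5a2 at 3.06 and Col6a1 at -3.18 as the extremes, and of the 23 TGF-beta and BMP pathway genes 14 are orange.

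The core of the HIF binding site reads ACGTG or GCGTG. Because these genes rose together, the 250 bases upstream of their starts were read from RefSeq (GRCm38.p6, which has the coordinates of mm10) and searched for these letters on both strands. The core was present in 36 of 43 upstream windows (83.7%) of the 28 higher list genes that had one, against 57.9% of windows of all genes tested and 38.6% of all windows in the table. For all tested list genes, called or not, the share was 78.8%. Among all genes called higher it was 60.3%, near that of all genes tested, and among those called lower 52.4%. Windows of one gene can overlap, the list was compiled from genes known as HIF targets, and a match shows letters, not binding. The core holds the letters CG, and the sets of windows were not matched for their CG content. For collagen genes 4 of 11 windows held the core. The upstream windows of Adm (chr7:110627407-110627656, plus strand), Bnip3 (chr7:138909507-138909756, minus strand), Pfkp (chr13:6648772-6649021, minus strand) and Pgk1 (chrX:106186850-106187099, plus strand) are printed 5′ to 3′ because these genes were among the list's largest rises. The Pfkp window lies within the annotated span of the gene (6579874 to 6649060), so it was read from a start inside that span. Capitals mark the core on either strand, and the windows hold 2, 5, 3 and 2 matches, which overlap in Bnip3.
Adm: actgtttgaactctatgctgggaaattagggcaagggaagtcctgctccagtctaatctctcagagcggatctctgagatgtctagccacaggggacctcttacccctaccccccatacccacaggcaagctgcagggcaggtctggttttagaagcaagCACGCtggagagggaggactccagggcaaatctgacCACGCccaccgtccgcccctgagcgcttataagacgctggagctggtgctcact
Bnip3: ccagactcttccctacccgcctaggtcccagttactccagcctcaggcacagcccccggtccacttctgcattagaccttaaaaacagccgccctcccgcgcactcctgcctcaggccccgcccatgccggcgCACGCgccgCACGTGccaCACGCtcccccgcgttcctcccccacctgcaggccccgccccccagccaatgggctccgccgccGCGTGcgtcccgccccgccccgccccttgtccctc
Pfkp: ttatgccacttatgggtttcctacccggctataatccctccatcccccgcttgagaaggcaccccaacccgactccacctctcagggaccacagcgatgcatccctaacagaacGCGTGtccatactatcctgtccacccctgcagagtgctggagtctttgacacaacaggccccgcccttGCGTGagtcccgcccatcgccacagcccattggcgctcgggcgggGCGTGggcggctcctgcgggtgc
Pgk1: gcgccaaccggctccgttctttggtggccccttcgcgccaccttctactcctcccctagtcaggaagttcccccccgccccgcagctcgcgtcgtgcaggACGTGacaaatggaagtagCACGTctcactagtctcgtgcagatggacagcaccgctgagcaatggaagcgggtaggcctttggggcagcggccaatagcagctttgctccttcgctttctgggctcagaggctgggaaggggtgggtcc

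Adrenomedullin acts through the receptor CALCRL with a RAMP co-receptor. Of 5 tested genes of this system 2 were higher and 1 lower. Adm2, a related peptide, was at 1.86, 0.40 and 1.29 RPKM in ptgs1-KO and 9.23, 8.84 and 10.07 RPKM in ptges-KO (log2 difference 2.31, adjusted p = 6.6e-05). The receptor gene Calcrl went the other way, from 3.73 to 4.75 RPKM in ptgs1-KO to 2.11 to 3.06 RPKM in ptges-KO (-0.62, adjusted p = 0.0141), a call lost without ptges-KO replicate 2 or 3. Ramp3, which makes CALCRL an adrenomedullin receptor, overlapped between the lines, at 56.37 to 85.54 and 62.91 to 71.27 RPKM.

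Collagen RNA was lower in ptges-KO for 9 of the 11 chains tested and higher for 1, with a median log2 difference of -0.81. The count was 8 or 9 lower under every alternative. Col6a1, of the beaded filament collagen VI, was between 10.10 and 11.70 RPKM in the ptgs1-KO samples and at 0.36, 0.28 and 0.32 RPKM in ptges-KO (-3.18, adjusted p = 1.23e-07). Scramble cells, at 1.42 RPKM, were also far below ptgs1-KO. Col5a1, whose chain helps to start fibrils, was at 56.57, 51.07 and 49.46 against 10.48, 8.71 and 8.47 RPKM (-2.39, adjusted p = 3.78e-07), and here too scramble (16.1 RPKM) was nearer to ptges-KO. Col5a2, the partner chain of collagen V, ran the other way, at 0.11, 0.22 and 0.21 RPKM in ptgs1-KO and 9.91, 8.73 and 7.90 RPKM in ptges-KO (3.06, adjusted p = 2.36e-07). The 2 chains of the same collagen thus differed in opposite directions, and scramble was between for both.

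Col3a1, of fibrillar collagen III, was at 425.56, 403.48 and 366.71 RPKM against 223.93, 195.92 and 192.10 RPKM (-0.96, adjusted p = 0.000121). In this gene the ptgs1-KO samples were the ones near scramble, at 466 RPKM. The basement membrane chain Col4a1 was at 564.87, 522.23 and 477.33 RPKM against 331.59, 281.28 and 279.38 (-0.81, adjusted p = 0.000612), with scramble at 508 RPKM. Col18a1, the source of endostatin, was 4.28-fold lower in ptges-KO. Col4a2, Col4a5, Col8a1 and Col16a1 were lower too, and Col7a1 was not called. Col1a1, at 0.82 to 1.10 RPKM in ptgs1-KO and 0.01 to 0.14 RPKM in ptges-KO, was under the level tested.

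Enzymes that modify and process collagen were mixed, with 4 of 20 higher and 8 lower. Those lower fell to 4 without ptgs1-KO replicate 1, ptgs1-KO replicate 2 or ptges-KO replicate 2. Higher were the prolyl hydroxylase subunits P4ha1 (0.80) and P4ha2 (1.38), which also stand in the HIF list, the lysyl hydroxylase Plod2 (0.51) and Pcolce2, an enhancer of procollagen cleavage (0.96). Lower were Loxl3, a lysyl oxidase that cross-links collagen (33.69 to 39.64 against 9.37 to 10.32 RPKM, -1.82, adjusted p = 1.72e-06), and the procollagen proteases Adamts14 (-1.07) and Bmp1 (-0.96). The collagen chaperone gene Serpinh1 was lower (-0.47, adjusted p = 0.0203). This call was lost without ptgs1-KO replicate 1 or 2 or ptges-KO replicate 2 or 3.

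Laminins and matrix glycoproteins were lower in 15 of 23 genes and higher in 3, with a median of -0.52. Fn1, which encodes fibronectin, was at 104.21, 100.46 and 92.34 RPKM in ptgs1-KO and 18.76, 15.05 and 14.59 RPKM in ptges-KO. The groups were wide apart (-2.55, adjusted p = 2.53e-07), and scramble, at 43.8 RPKM, was between them. Fbln2, fibulin-2, was at 432.01, 409.93 and 360.30 against 79.90, 74.45 and 74.06 RPKM (-2.38, adjusted p = 1.72e-07), with scramble at 375 RPKM beside ptgs1-KO. The fibulins moved in opposite directions, since Fbln1 was on in ptges-KO alone. Lama5, Lamb1, Lamb2 and Lamc1 were lower among the laminin chains, along with the linkers Nid1 and Nid2, the calls of Lamb1 and Lamc1 being lost without ptgs1-KO replicate 1, ptges-KO replicate 2 or ptges-KO replicate 3 and that of Lamb1 also without ptgs1-KO replicate 2. Fbn1, fibrillin-1, rose 2.00-fold, and Tgfbi, a secreted adhesion protein, rose from 0.42 to 0.56 RPKM in ptgs1-KO to 2.94 to 4.77 RPKM in ptges-KO. Sparc, Thbs1 and Vcan were not called.

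Matrix proteases and inhibitors included 1 higher and 5 lower of 20 genes (30.0% called, against 23.6% of all genes tested). Only 2 were lower without ptges-KO replicate 2 or 3, and 3 without ptgs1-KO replicate 1 or 2. The 2 plasminogen activators moved apart. Plau, the urokinase, was at 0.36, 0.39 and 0.40 RPKM in ptgs1-KO and 6.12, 5.21 and 5.42 RPKM in ptges-KO (2.25, adjusted p = 1.27e-06), whereas Plat, the tissue-type activator, fell from 45.05 to 60.08 RPKM to 19.18 to 21.82 RPKM (-1.36, adjusted p = 4.05e-05). Of 18 integrins and matrix receptors, 9 were lower and 1 was higher (55.6% called, against 23.6% of all genes tested). Under the alternatives between 5 and 12 were lower. Itga4, an integrin chain that pairs with the chain encoded by Itgb7, was 3.45-fold lower, and Itgb7 itself was at 259.88, 248.16 and 212.49 RPKM against 112.17, 106.51 and 108.33 RPKM (-1.13, adjusted p = 3.28e-05). The heparan sulfate proteoglycan Sdc3 was 2.85-fold lower, and Sdc2 was higher by 0.42, a call lost when any one ptges-KO sample was left out.

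Of 18 cell-cell adhesion genes 6 were lower and 2 higher (44.4% called, against 23.6% of all genes tested). Under the alternatives between 3 and 8 were lower. Cldn1, a tight junction claudin, was at 214.23, 201.94 and 167.36 against 85.16, 68.59 and 67.77 RPKM (-1.39, adjusted p = 3.78e-05). Vcam1, a ligand of the Itga4 integrins, was 1.79-fold lower in ptges-KO, and Pvrl1, which encodes nectin-1, 3.31-fold lower. Cdh6, a cadherin, and Pkp2, a desmosomal protein, rose 1.95-fold and 1.99-fold.

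The p53 target list had 12 of 16 genes higher and 0 lower, with a median of 0.45. The count was 7 without ptges-KO replicate 2 and 6 by a Tukey test on untransformed values. Ccng1, cyclin G1, was at 183.09, 178.17 and 147.40 RPKM in ptgs1-KO and 373.40, 325.46 and 323.93 RPKM in ptges-KO. All ptges-KO samples were higher (log2 difference 1.01, adjusted p = 0.00016), and the scramble mean was 274 RPKM. Zmat3, an RNA-binding p53 target, rose by 0.92 and lies on chromosome 3. Pmaip1, the pro-apoptotic NOXA gene, rose by 0.71, and Cdkn1a, Bax, Phlda3 and Tnfrsf10b were also higher. Mdm2 was not called without ptges-KO replicate 2, and Trp53 itself (0.36) kept its call only when ptgs1-KO replicate 1 was the sample left out. Bbc3, Sesn1, Sesn2 and Trp53inp1 were not called. The lines carry a p16INK4a deletion, and Cdkn2a was at 0.64 to 2.28 RPKM.

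Of 33 cell cycle genes 6 were higher and 0 lower (median 0.14). These 18.2% called compare with 23.6% of all genes tested in either direction and 9.88% higher. Once length and GC trends were removed, 16 were higher. Ccna2, Bub1 and Birc5 had the largest rises, at 0.69, 0.58 and 0.49, and Ccna2 lies on chromosome 3. Cytosolic ribosomal protein genes had 15 of 79 higher and 0 lower (19.0% called). The count of higher genes moved between 2 without ptges-KO replicate 2, 4 without ptges-KO replicate 3, 4 without ptgs1-KO replicate 1 and 57 without ptges-KO replicate 1. Oxidative phosphorylation subunits were called higher in 4 of 78 genes and lower in 0, a share under that of all genes, and the count was 17 without ptges-KO replicate 1 and 1 without ptges-KO replicate 2, ptges-KO replicate 3, ptgs1-KO replicate 1 or ptgs1-KO replicate 3.

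**Figure D4:**
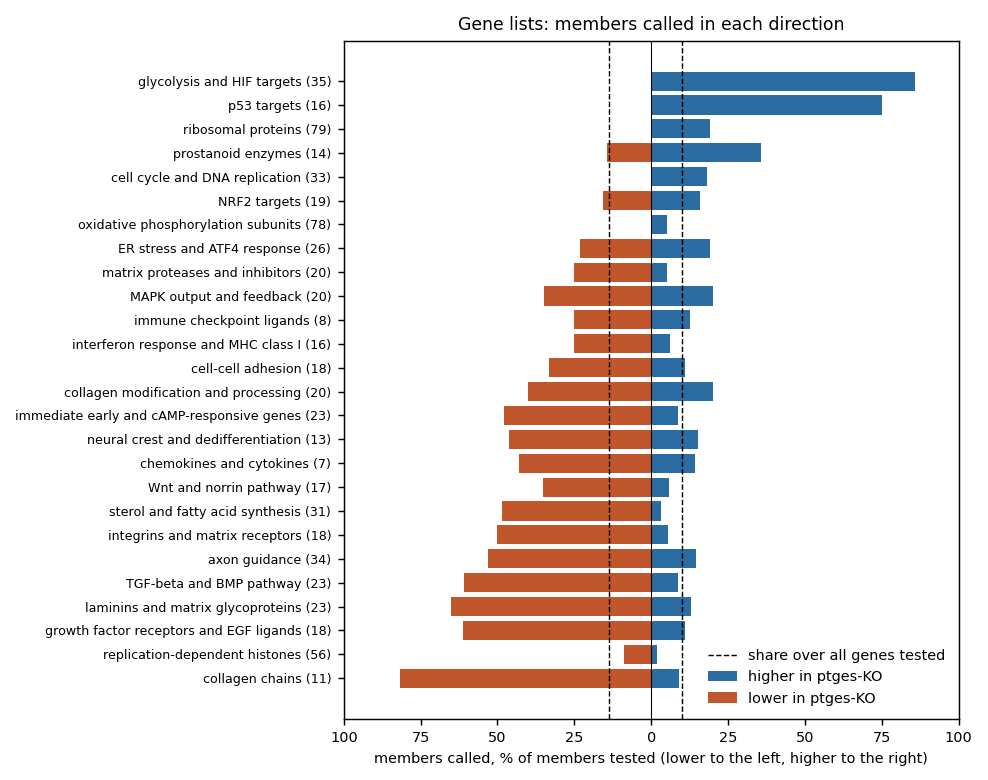
Share of tested members called higher (blue, to the right) and lower (orange, to the left) in ptges-KO for the gene lists with at least 7 tested members, ordered by median log2 difference, with the number tested in parentheses. Dashed lines mark the shares over all genes tested, 9.88% higher and 13.7% lower. Glycolysis and HIF targets lie at the top and collagen chains at the bottom.

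TGF-beta and BMP pathway genes were lower in 14 of 23 cases and higher in 2, with a median of -0.50. Grem1, described above, had the largest fall. Bmp6, a BMP ligand, was at 19.14, 17.20 and 16.89 RPKM in ptgs1-KO and 4.46, 3.92 and 3.99 RPKM in ptges-KO (-1.87, adjusted p = 2.33e-06), with scramble lower than both at 2.75 RPKM. The inhibitory SMAD genes Smad6 and Smad7, the ligands Tgfb1 and Tgfb3, the receptors Tgfbr2 and Tgfbr3 and the latency proteins Ltbp3 and Ltbp4 were all lower. The calls of Tgfb1, Tgfb3 and Tgfbr2 were lost without ptges-KO replicate 2, those of Tgfb1 and Tgfb3 also without ptges-KO replicate 3, and that of Tgfb1 also without ptgs1-KO replicate 1 or 2. Id2, a BMP-responsive inhibitor of differentiation, was higher by 0.71, while its relative Id3 was lower. Fstl3, an activin antagonist, was the other gene higher.

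Of 17 Wnt and norrin pathway genes 6 were lower and 1 higher. Lrp5, a co-receptor, was at 22.19, 18.80 and 19.59 RPKM against 4.04, 3.31 and 3.12 RPKM (-2.24, adjusted p = 1.27e-06), and the ptgs1-KO samples were near the scramble mean of 17.7. Notum, a Wnt deacylase, and Dkk2, a secreted LRP ligand, had log2 differences of -2.14 and -0.99. The receptor gene Fzd6 rose from 2.76 to 3.60 RPKM to 8.82 to 13.41 RPKM.

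Axon guidance genes, whose ligands and receptors also steer vessels and tumor cells, were lower in 18 of 34 cases and higher in 5 (median -0.41). Unc5b, a netrin receptor, was at 152.99, 135.87 and 121.48 RPKM in ptgs1-KO and 35.84, 28.60 and 30.25 RPKM in ptges-KO (-2.08, adjusted p = 1.4e-06). Slit3, a ligand of ROBO receptors, was at 197.56, 173.76 and 161.81 against 56.25, 43.29 and 41.83 RPKM (-1.90, adjusted p = 4.92e-06). The semaphorin gene Sema7a had a log2 difference of -1.73, whereas Sema3c and Sema3d and the semaphorin and VEGF co-receptor Nrp1 were higher by 1.62, 1.19 and 1.00.

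Growth factor receptors and EGF ligands were lower in 11 of 18 cases and higher in 2 (median -0.52). Fgfr1 was at 49.48, 48.26 and 42.32 RPKM in ptgs1-KO and 14.20, 11.32 and 11.88 RPKM in ptges-KO (-1.83, adjusted p = 3.01e-06). The receptors Pdgfra and Pdgfrb had log2 differences of -0.85 and -1.53. EGF family ligands split. Btc, betacellulin, was at 51.49, 45.50 and 35.73 against 9.11, 9.09 and 8.02 RPKM (-2.20, adjusted p = 2.69e-06), whereas Areg, amphiregulin, was at 21.86, 21.68 and 22.96 against 44.67, 42.73 and 44.63 RPKM (0.96, adjusted p = 5.1e-05). Hbegf was higher by 0.41, a call lost without ptges-KO replicate 2 (adjusted p = 0.0592).

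MAPK output genes, which report signalling below BRAF, were lower in 7 of 20 cases and higher in 4. The ERK phosphatases Dusp4 and Dusp6 and the feedback inhibitors Spred1 and Spry4 were lower, as were the ETS factors Etv1, Etv4 and Etv5. Dusp6 was at 163.35, 162.84 and 139.68 RPKM against 100.45, 95.72 and 94.38 RPKM (-0.67, adjusted p = 0.0008). Fosl1, Egr1, Phlda1 and Spry1 (on chromosome 3) were higher, and Ccnd1 and Myc were not called. Etv4, Spry4 and Fosl1 lost their calls without ptges-KO replicate 2 or 3, Spry4 and Etv4 also without ptgs1-KO replicate 1, Etv4 and Fosl1 without ptgs1-KO replicate 2, and Fosl1 without ptgs1-KO replicate 3. Braf itself was at 12.55, 12.55 and 11.67 RPKM against 10.23, 9.07 and 9.09 (-0.34, adjusted p = 0.045), a call lost when ptges-KO replicate 2 or 3 or ptgs1-KO replicate 1 or 2 was left out.

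Of 23 immediate early and cAMP-responsive genes 11 were lower and 2 higher. Fos was at 13.48, 16.06 and 15.15 RPKM in ptgs1-KO and 4.02, 4.97 and 5.07 RPKM in ptges-KO (-1.49, adjusted p = 2.43e-05), with scramble near ptgs1-KO at 12.5 RPKM. Fosb (-1.19), Klf2 (-1.07), Klf4 (-0.75) and Jun (-0.34) were lower as well. Direct CREB targets were mixed. Nr4a2 was lower (-0.43), the calls of Nr4a2 and Jun were lost without ptgs1-KO replicate 1 or 2 or ptges-KO replicate 2 or 3, Nr4a1 and Crem were not called, and Pde4b, a cAMP phosphodiesterase, was higher (1.19 to 1.55 against 3.94 to 4.64 RPKM, adjusted p = 0.000142).

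Sterol and fatty acid synthesis genes were lower in 15 of 31 cases and higher in 1 (median -0.35), and lower in 7 without ptges-KO replicate 2 or ptgs1-KO replicate 1, and in 6 without ptges-KO replicate 3. Tm7sf2 and Insig1 were among those lower, at -0.87 and -0.58. The 1 gene higher was Fdps, which lies on chromosome 3 and lost its call without ptges-KO replicate 2 or 3. Of 13 neural crest and dedifferentiation genes 6 were lower and 2 higher. Without ptgs1-KO replicate 1 or 2, or ptges-KO replicate 2 or 3, 2 of them were lower. Nes, the intermediate filament gene nestin, was at 0.18 to 0.44 RPKM in ptgs1-KO and 3.19 to 4.11 in ptges-KO, and Sox2 was higher by 0.43 (not called without ptges-KO replicate 2). Both lie on chromosome 3.

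Some genes of immune interaction were called. Of 16 tested interferon and MHC class I genes 4 were lower and 1 higher (31.2% called, against 23.6% of all genes tested). Under the alternatives between 1 and 6 were lower and at most 1 was higher. Tmem173, which encodes the DNA-sensing adaptor STING, was at 5.31, 4.95 and 4.17 RPKM in ptgs1-KO and 0.18, 0.32 and 0.17 RPKM in ptges-KO (-2.25, adjusted p = 2.46e-06), but scramble cells were equally low, at 0.333 RPKM. Irf1 and Irf9 had log2 differences of -0.84 and -0.85. Among 7 chemokines and cytokines, Cx3cl1 (fractalkine) was at 60.13, 50.15 and 43.63 RPKM against 10.40, 9.80 and 9.56 RPKM (-2.25, adjusted p = 1.23e-06), with scramble at 46.8 RPKM. Il11 and Il34 were lower, the latter not called without ptges-KO replicate 2 or ptgs1-KO replicate 2, and Mif rose from 638 to 799 RPKM to 1250 to 1410 RPKM. Of 8 checkpoint ligand genes (37.5% called), Cd47 and Cd276 were lower and Lgals3 higher. Each differed by less than 0.60, and each call was lost without single samples of both lines. Cd47 (-0.31) lies in a stretch of chromosome 16, described further on, that was low in ptges-KO. In its window 19 of 35 tested genes were lower and 1 higher, with a median of -0.35. Whether Cd47 differed apart from these neighbours was not tested. Cd274, which encodes PD-L1, was under the level tested at 0.51 to 0.77 RPKM. The lists of ER stress and ATF4 genes (5 higher, 6 lower of 26) and NRF2 targets (3 and 3 of 19) had no prevailing direction. Without ptges-KO replicate 2 the former counted 3 and 1 and the latter 0 and 1.

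Immune, endothelial and epithelial markers were at or near 0. Of 8 immune, 5 endothelial and 6 epithelial markers, Cd68 alone was tested and was not called (0.67 to 1.06 RPKM), and Cd3e, Lyz2, Kdr, Krt5 and Epcam were at 0. Of 5 fibroblast markers Pdgfra was the only one tested. It was at 10.38, 11.05 and 9.86 RPKM in ptgs1-KO and 5.83, 5.24 and 5.00 RPKM in ptges-KO (adjusted p = 0.000599), while Dcn and Lum were at 0. Replication-dependent histone RNAs, which lack a poly(A) tail, were lower in 5 and higher in 1 of 56 genes (10.7% called, against 23.6% of all genes tested). Between 2 (without ptges-KO replicate 2 or 3) and 14 (without ptgs1-KO replicate 1) were lower when 1 sample was left out. Hist1h2bf was at 2.05, 2.47 and 8.06 RPKM in ptgs1-KO, highest in the replicate that was high in Rn45s, and at 0.66 to 1.09 RPKM in ptges-KO, a call lost without ptges-KO replicate 2.

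Differences were not spread evenly over the genome. On chromosome 3, 236 of 532 tested genes were higher in ptges-KO and 25 lower (49.1% called), with a median log2 difference of 0.31. Against the scramble mean, with the median of all genes set to 0, the median of chromosome 3 genes was -0.30, -0.28 and -0.30 in the ptgs1-KO samples and 0.07 in each ptges-KO sample. Every ptgs1-KO sample was thus low over this chromosome. In windows of 15 Mb from 30 Mb to 105 Mb the median difference between the lines was 0.37 to 0.56, and in the 4 windows beyond 105 Mb it was 0.01 to 0.13, where ptges-KO was also below scramble (-0.11 to -0.24). On chromosome 16, 84 of 328 genes were lower and 26 higher (median -0.16), and the fall was largest between 30 and 60 Mb, where the medians were -0.36 and -0.35 and ptges-KO stood at -0.30 and -0.25 from scramble. The lowest median of the 167 windows, -0.44, was on chromosome 13 (15 to 30 Mb, the window of Hist1h2bf), where 7 of 77 genes were called lower and 1 higher. One window of chromosome 15 (60 to 75 Mb) had 10 of 21 genes higher and 0 lower, with a median of 0.35. Genomic DNA was not analysed here, and what set these levels was not tested. Without the genes of chromosome 3, 2326 of 10750 genes were called, and the glycolysis and HIF, collagen and TGF-beta counts were 30 higher, 9 lower and 14 lower.

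**Figure D5:**
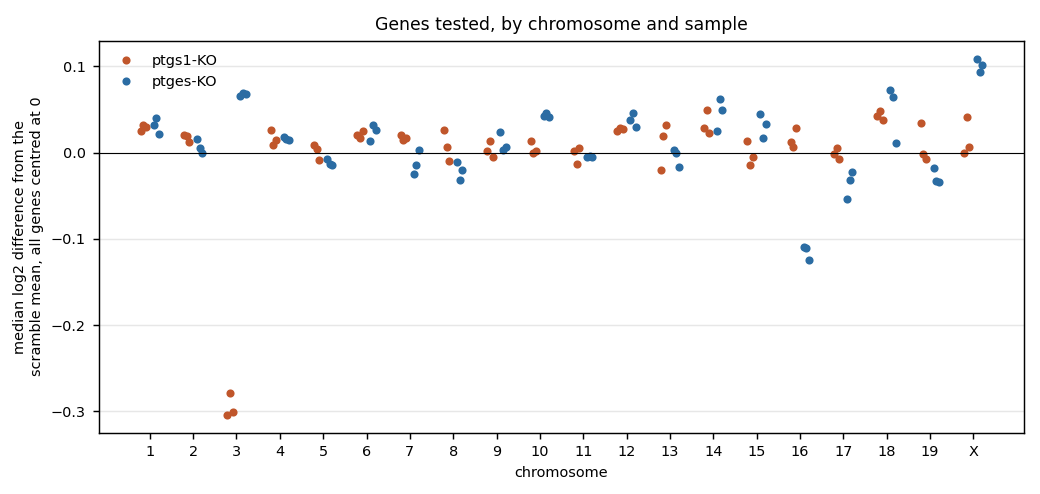
Median over the tested genes of each chromosome of the log2(RPKM + 1) difference from the scramble mean, with the median of all genes set to 0. Each point is 1 sample, ptgs1-KO in orange and ptges-KO in blue. On chromosome 3 the 3 ptgs1-KO samples lie at -0.28 to -0.30, and on chromosome 16 the 3 ptges-KO samples lie at -0.11 to -0.13.

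Genes beside the targeted loci were examined within 1 Mb. Near Ptges, 35 genes were tested, of which 3 were higher and 3 lower, a share under that of all genes tested (23.6% called). Near Ptgs1 8 were tested, of which 1 was higher and 3 lower, a share above these 23.6% but one of few genes. Prrx2, a mesenchymal homeobox gene 8.2 kb from Ptges, was at 102.09, 97.78 and 86.55 RPKM in ptgs1-KO and 52.16, 53.13 and 60.41 RPKM in ptges-KO (-0.78, adjusted p = 0.000477), with scramble at 86.5 RPKM. Pkn3 was lower (-0.75), and Zdhhc12, Exosc2, Ccbl1 and D2Wsu81e were called but not in every fit that left out 1 sample. Near Ptgs1, Dab2ip, a RAS GTPase activator, was at 24.32, 21.11 and 23.56 against 11.57, 8.31 and 8.74 RPKM (-1.20, adjusted p = 0.000167). This neighbour was thus lower in the line in which Ptgs1 was intact, and scramble, at 21.8 RPKM on average, was near ptgs1-KO. Ggta1, Lhx6 and Mrrf were also called, each not in every such fit.

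The scramble mean placed the differences between the lines. The genes that were called and did not overlap numbered 2627, of which 1100 were higher in ptges-KO (9.75% of genes tested) and 1527 lower (13.5%). Scramble lay between the lines but nearer to ptgs1-KO in 1263 of them (48.1%) and nearer to ptges-KO in 662 (25.2%). It lay beyond ptgs1-KO in 534 (20.3%) and beyond ptges-KO in 168 (6.40%).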

How the data were processed

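RNA was extracted from cultured cells and sequenced as paired-end 101 bp reads. The RNA and library kits named per the labels and in the study's methods differ. The authors deposited RPKM values of 30705 genes to 2 decimals, on mm10 per the labels. The aligner, counter and annotation are not given in the sources used here. Genes whose RPKM averaged 1 or more across the 12 samples were kept, and log2(RPKM + 1) of the 6 samples was fitted with limma 3.58.1 in R 4.3.3 (trend, 11282 genes, Benjamini-Hochberg, 0.05). Fold changes on this scale understate low genes. Depth was estimated from whole-read steps. Symbols of 94.9% of tested genes matched RefSeq. A simulation drew independent normal values with the spread of these samples and changed 200 genes by 1 or 2 on the log2 scale. Of these genes 89.5% were found, and 3.76% of calls were false. Most called genes here differed by less than 1, and the simulation held no length, GC, depth or chromosome-wide shifts. Its shares therefore do not measure the sensitivity or the false share of the calls reported. Named genes were the targets, the 12 largest rises and 12 largest falls in log2 difference and 6 each in RPKM among called genes without overlap, up to 3 rises and 3 falls per list, marker genes, 5 chosen collagen genes and Adm, and called neighbours of the targets. Baiap2l1 and other list members outside this rule were named after their values were seen. The comparison and the lists were chosen with earlier results of these data known. The alternatives covered pseudocounts, filters, scalings, models, blocks, length and GC trends, and single samples left out. Some results are not reported here.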

Additional observations from a re-analysis of the deposited data

How the results depend on the processing

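The count of changed genes, 2659, was 1590 by a Tukey test over the 4 lines on untransformed values and 364 with a further limit of 1 on the absolute log2 difference. Leaving out 1 sample at a time gave 1409 to 3110 genes. Under the other alternatives it lay within 1.5 times, from 1954 (filter at a mean of 10 RPKM) to 3785 (length and GC trends removed), and no called gene changed direction in any alternative. The log2 difference of Ptges, -0.54, lay between -0.62 and -0.43 under the alternatives. Ptges kept its call in them but falls under that limit of 1. Ptgs2 passed the threshold with median ratio scaling (0.38), with all 12 samples in the model (0.34), with a replicate block over all 12 samples (0.34), with length and GC trends removed (0.35), with the replicate block and these trends removed (0.35), and with median ratio scaling without ptgs1-KO replicate 3 (0.31). Same-numbered samples deviated together by correlations of 0.18, 0.08 and -0.05, so the numbers were not taken as pairs. With the replicate block on 6 samples 3322 genes were called. The cause of these shifts was not tested. The median log2 difference over all genes was -0.04, and -0.10 with the 20 most abundant genes or the 3 ribosomal transcripts removed. Of 161 named genes called, 121 kept the call whichever sample was left out, and 38 lost it without ptges-KO replicate 2. The alternatives without 3 ribosomal transcripts, without chromosome 3 and with median ratio scaling on 5 samples were chosen after seeing the data. With 3 samples per line and RPKM alone, low genes are measured with an unknown counting error.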
